A study of Homo sapiens with 4 samples.

Results

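Metallothioneins are small cytosolic proteins in which clustered cysteines hold zinc and copper. Their genes are transcribed on demand: free zinc is sensed by the transcription factor MTF1, which binds metal response elements in the metallothionein promoters, and glucocorticoids and oxidants also induce several of the genes. In the human genome the genes lie side by side on chromosome 16, with pseudogenes among them and a few processed copies elsewhere, and the MT1 isoforms are close relatives of each other and of MT2A. Here, 10 of these genes, MT1A, MT1B, MT1E, MT1F, MT1G, MT1H, MT1M, MT1X, MT2A and MT3, were followed in HT1080 cells, an established human fibrosarcoma line, among 18417 genes that have a probe set naming no other gene. MT1A is named by no probe set in the annotation used here, which left 9 measured members. MT2A is named by 3 probe sets and each of the others by 1. Where a gene had several, the brightest on average was taken.

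The cells were kept in medium with low serum for 36 h at 1% oxygen (hypoxia) or at 21% oxygen (control), both with the same carbon dioxide. ER-RNA, extracted from an endoplasmic reticulum (ER) fraction prepared with an isolation kit, and total RNA of whole cells were each hybridised to Affymetrix Human Gene 1.0 ST arrays. By the study's methods, cells were treated with cycloheximide before RNA was isolated from subcellular fractions such as the ER. Such treatment is not stated there for total RNA, and its effect on the comparison of fractions was not tested. There were 4 arrays in all, in the order used throughout: ER-RNA in hypoxia, ER-RNA in control, total RNA in hypoxia and total RNA in control. Each array carried RNA pooled from 5 independent experiments, so each group is 1 sample with no replicate. The variation among the 5 experiments is lost by pooling, and the text therefore holds no test. Values are log2 signals after normalization by the authors, and fold changes are hypoxia over control within a fraction. A gene was called changed above a 1.4-fold change with an absolute z-score above 3. It also had to be expressed in that fraction, that is, above the array median in hypoxia, in control or in both. The z-score divides the log2 difference by an SD typical of probe sets with that mean signal, taken from a smooth curve. This is the SD of the hypoxia and control values of a pair, a smaller measure than the SD of the log2 differences. A z-score is therefore not a number of SDs of the difference. Since the RNA is that of a whole culture, more cells with a transcript and more transcript per cell cannot be told apart.

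The array medians were 6.34 and 6.25 for ER-RNA in hypoxia and control, and 7.49 and 7.41 for total RNA, so the fractions do not share a scale. All 4 genes taken as a check of the oxygen labels, EGLN3, BNIP3, NDRG1 and PDK1, were called up in both fractions. Of 9 mesenchymal markers, 8 lay above the median on all 4 arrays, VIM and FN1 among them. S100A4 did so on 1 array only. The epithelial markers EPCAM and CDH1, the blood cell markers PTPRC, CD3E and HBB and the liver marker ALB lay below the median on every array, while the keratin gene KRT19 lay above it on all 4. Most of the markers whose proteins enter the ER had less signal in ER-RNA over total RNA than the typical probe set, as given beside that ratio, and ER-RNA is used here only as the name of the fraction.

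To show what the metallothionein genes share in sequence, promoter windows of 300 bases, from 250 bases before to 50 after the annotated start, were searched on both strands. Such windows from RefSeq (GRCh38.p14) matched 4 of the 10 members by symbol, MT1X, MT1H, MT2A and MT1B. The core of the metal response element was written as TGCACNC or TGCGCNC. It occurred 4 times in the MT1X window, 8 times in MT1H, 8 times in MT2A and 3 times in MT1B. Of 35116 windows of this length in the table, 29.6% held at least 1 such core, 2.3% at least 3, 0.601% at least 4 and 0.0199% at least 8. Position is counted from the gene start, with bases before it negative. In each of the 4 genes a core on the gene's strand began at position -54 or -53, and in 3 of them a TATAAA match lay at -30 or -29. MT1H has no TATAAA match in its window. These stretches are shown because they are the part that the 4 promoters have in common, with the core in capitals. All are on the plus strand of chromosome 16, which is also the strand of the genes.
MT1X, chr16:56682411-56682437: ggcctcTGCGCCCggccctcttcccgg
MT1H, chr16:56669755-56669781: ggtctcTGCACCCggctccctcccctg
MT2A, chr16:56608524-56608550: ggctttTGCACTCgtcccggctctttc
MT1B, chr16:56651827-56651853: ggcctcTGCACCCcaccacctcccccg

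The other 3 cores of MT1X, the member with the highest fold changes below, began at -150, -122 and -78, and the core at -78 is read on the opposite strand, so that its capitals show the reverse complement.
MT1X at -150, chr16:56682313-56682333: cccgcggTGCGCCCggcgctg
MT1X at -122, chr16:56682341-56682361: gggttgcTGCACCCggcccag
MT1X at -78, chr16:56682385-56682405: caggggcGGGTGCAaggacga

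A core on the opposite strand close to -78 was also found in MT1H (-78) and MT1B (-79). The hypoxia response element, the binding sequence of HIF, has the core ACGTG or GCGTG. This shorter core was found 3 times each in MT1X, MT1H and MT2A and not in MT1B, and at least 3 occurrences were held by 10.1% of all windows and at least 1 by 48.4%. In MT1H a pair of the matches overlap within CACGTG, an E-box, which 7.26% of all windows hold, and in MT2A the matches at -90 and 30 overlap metal response element cores. The GC box GGGCGG was present in all 4 windows and in 45% of all windows. A match is a description of the letters only, and binding at these places was not measured.

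**Figure D1:**
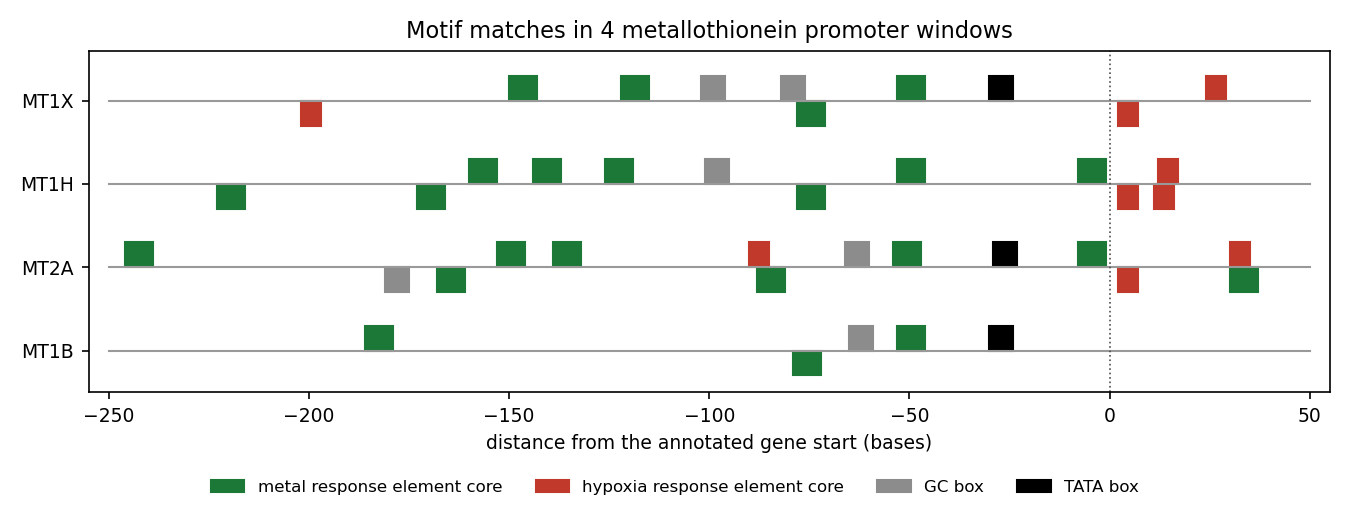
Motif matches in the promoter windows of MT1X, MT1H, MT2A and MT1B, plotted as distance from the annotated gene start in bases, with matches on the gene's strand drawn above the line and those on the opposite strand below it. In all 4 windows a metal response element core lies at -54 or -53, and the windows hold 4, 8, 8 and 3 such cores.

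The metallothioneins were higher in hypoxia than in control in both fractions, for each of the 9 measured members. In ER-RNA 5 of the 9 were called up, and in total RNA 4 of the 9, with 3 of them, MT1X, MT1F and MT1E, called in both. None was called down. Among expressed genes, 1.12% were called up in ER-RNA and 2.32% in total RNA, 8.25% and 7.45% were called down, and 0.885% of the genes expressed in both fractions were called up in both. A value above control, without regard to size, was found for 47% of expressed genes in ER-RNA, 44.3% in total RNA and 35% in both fractions at once. All 9 members were expressed in ER-RNA and 8 in total RNA, where MT1M was not and could not be called. Over the 9 members, MT1M included, the log2 fold change had a median of 0.70 in ER-RNA and 0.52 in total RNA. For all expressed genes the medians were -0.037 and -0.058. With an SD taken from the scaled median absolute deviation of the log2 differences, only MT1X was called in either fraction, and with each array centred on its median 2 members were called in ER-RNA, MT1X and MT1F.

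**Figure D2:**
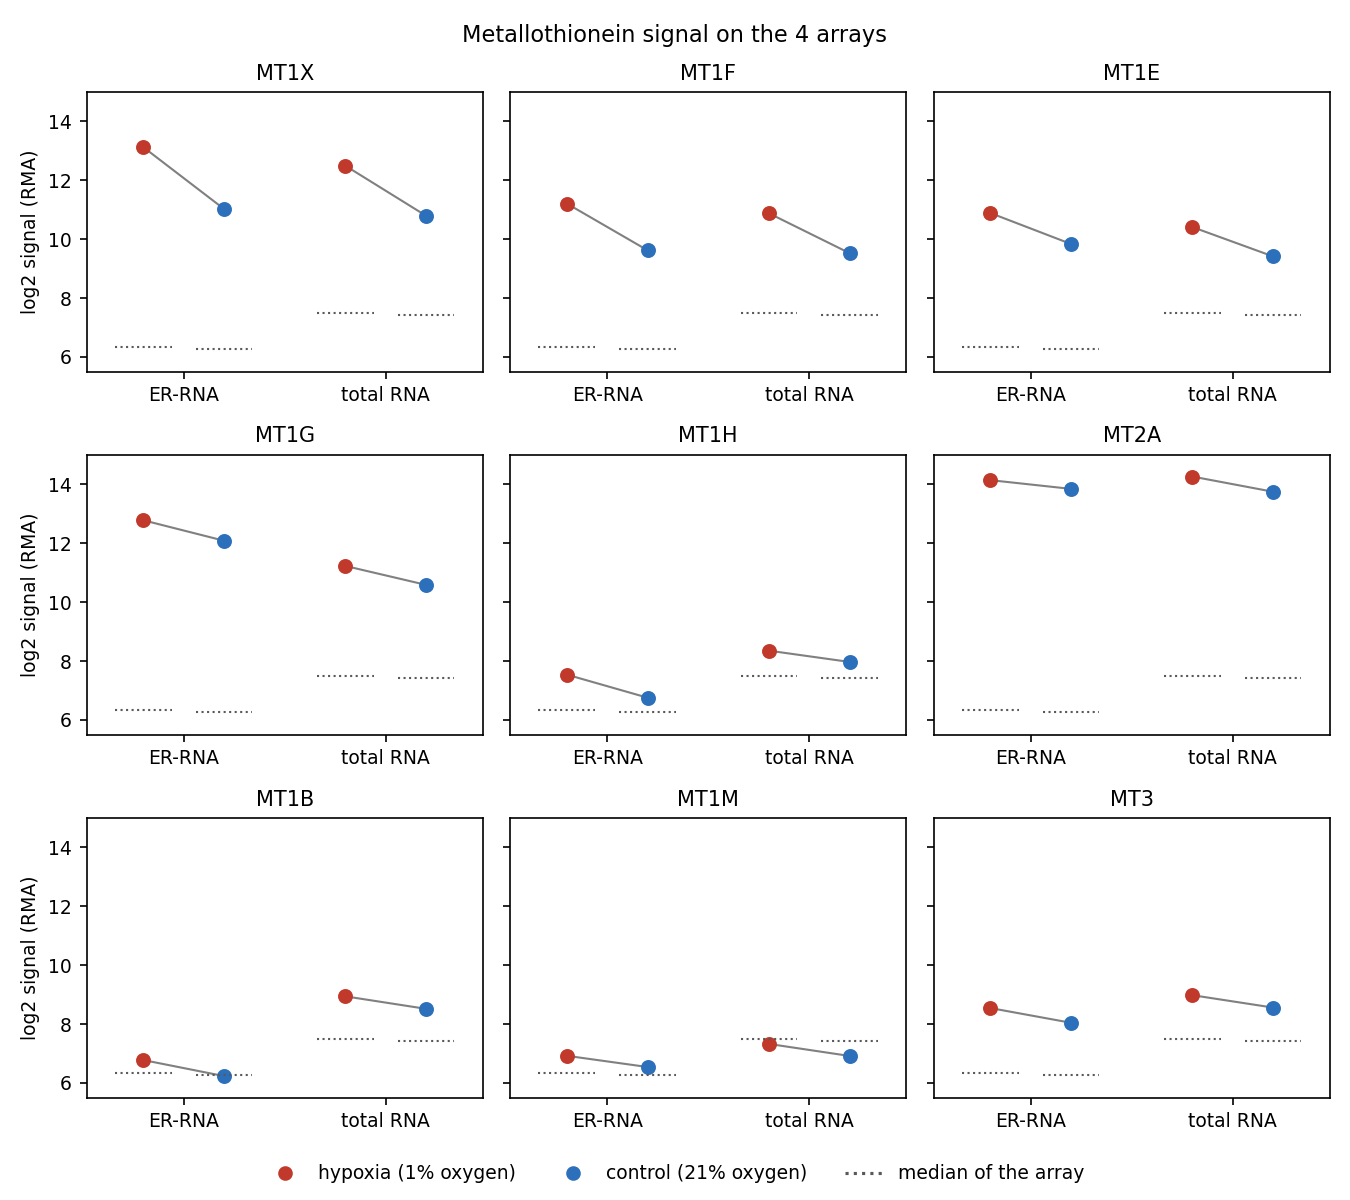
Log2 signal of the 9 measured metallothioneins in ER-RNA and in total RNA, with hypoxia (red) left of control (blue) and the median of each array as a dotted line. Each point is 1 array of pooled RNA, so no error bars can be drawn. Every red point lies above its blue partner, by 2.10 at most (MT1X in ER-RNA) and 0.30 at least (MT2A in ER-RNA).

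MT1X, an isoform that metals induce in many cell types, had the highest fold changes of the family. In ER-RNA its log2 signal was 13.13 in hypoxia and 11.03 in control, and in total RNA 12.50 in hypoxia and 10.80 in control. It rose in both fractions, 4.29-fold in ER-RNA, 3.25-fold in total RNA, with z-scores of 9.17 and 6.91. Of expressed genes, 99.9% had a lower log2 fold change in ER-RNA and 99.7% in total RNA. MT1X was called in both fractions under all 14 alternatives tried, though those on the choice of probe set or of members left its values unchanged. Its log2 fold change lay between 1.88 and 2.18 in ER-RNA and between 1.62 and 2.00 in total RNA.

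MT1F had log2 signals of 11.21 in hypoxia and 9.62 in control in ER-RNA, and 10.88 in hypoxia and 9.52 in control in total RNA. It rose in both fractions, 3.01-fold in ER-RNA, 2.56-fold in total RNA, with z-scores of 5.09 and 4.82. MT1E, another inducible isoform, reached 10.89 in hypoxia and 9.84 in control in ER-RNA, and 10.41 in hypoxia and 9.41 in control in total RNA. Its rise was 2.08-fold in ER-RNA, against 2.00-fold in total RNA, and its z-scores of 3.36 and 3.54 lie not far above the threshold. With each array centred on its median, the ER-RNA call of MT1E was lost (z-score 2.92). MT1X, MT1F and MT1E thus form the part of the family that was called in both fractions with the values as deposited.

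MT1G and MT1H were called up in ER-RNA and not in total RNA. MT1G had log2 signals of 12.78 in hypoxia and 12.09 in control in ER-RNA, and 11.23 in hypoxia and 10.59 in control in total RNA. Its fold changes were close to each other, 1.62-fold in ER-RNA (z-score 3.46) and 1.56-fold in total RNA (z-score 2.37), so that the fold threshold was passed in both and the z-score decided the call. MT1H had 7.54 in hypoxia and 6.76 in control in ER-RNA, and 8.35 in hypoxia and 7.97 in control in total RNA. It rose 1.72-fold in ER-RNA (z-score 3.26), beside 1.30-fold in total RNA (z-score 1.68). The ER-RNA calls of MT1G and MT1H were lost with each array centred on its median, and that of MT1H also with the expression limit set at the 75% quantile of the arrays. Whether the fractions differ in this was not tested.

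MT2A, in many tissues the main metallothionein, was called up in total RNA only. Its log2 signals were 14.15 in hypoxia and 13.85 in control in ER-RNA, and 14.27 in hypoxia and 13.75 in control in total RNA. These values are 1.23-fold apart in ER-RNA and 1.43-fold apart in total RNA, and the z-scores of 8.59 and 10.2 are large because the fitted SD is small at this end of the scale. At least 99.89% of the probe sets lay below it on each of the 4 arrays, whose highest values range between 14.32 and 14.45. How far the signal can still follow the amount of RNA there was not tested. The other probe sets of MT2A gave 1.19-fold and 1.29-fold in ER-RNA, and 1.34-fold and 1.46-fold in total RNA. MT2A was called in total RNA by the main probe set and by the last of these. Its total RNA call was lost after quantile normalization of the 4 arrays, with a log2 fold change of 0.37, and with each array centred on its median, with 0.44.

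MT1B, MT1M and MT3 were called in neither fraction. MT1B had log2 signals of 6.78 in hypoxia and 6.23 in control in ER-RNA, where the control value lies just below the array median, and 8.94 in hypoxia and 8.52 in control in total RNA. Hypoxia was 1.46-fold over control in ER-RNA (z-score 2.05) and 1.34-fold in total RNA (z-score 1.63). MT1M, for which the ER-RNA signal was 6.92 in hypoxia and 6.54 in control, lay below the array median in total RNA on both arrays (7.33 in hypoxia and 6.92 in control) and therefore could not be called there. It was at 1.30-fold in ER-RNA, against 1.33-fold in total RNA. MT3, best known as the isoform of the brain, had 8.54 in hypoxia and 8.04 in control in ER-RNA, and 8.98 in hypoxia and 8.56 in control in total RNA, which is 1.42-fold and 1.34-fold. Without regard to the z-score, 7 of the 9 members, all but MT1M and MT2A, passed a fold change of 1.4 in ER-RNA (6.53% of expressed genes did), and 5 of the 9, MT1X, MT1F, MT1E, MT1G and MT2A, in total RNA (6.2% of expressed genes).

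**Figure D3:**
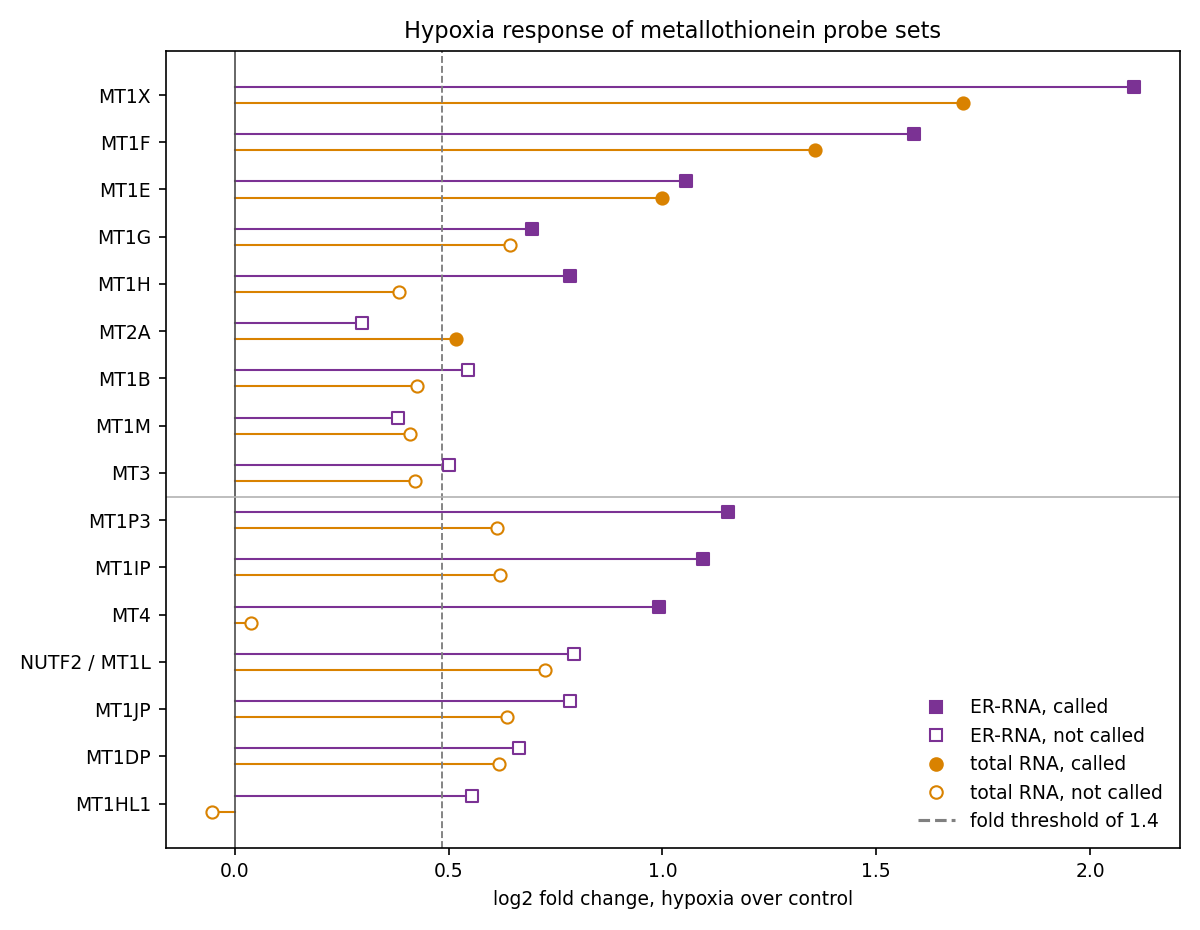
Log2 fold change, hypoxia over control, of the 9 measured members (above the line) and of 7 further probe sets annotated to metallothionein genes or pseudogenes (below the line), in ER-RNA (squares) and total RNA (circles), filled where the change was called. The dashed line marks a fold change of 1.4. Points of the members spread between 0.30 and 2.10, and the MT1HL1 circle is the only point left of 0.

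A further 7 probe sets are annotated to metallothionein genes or pseudogenes that are not among the members, and they bear on how far the isoforms can be told apart. The pseudogene MT1P3 had 9.66 in hypoxia and 8.50 in control in ER-RNA, a rise of 2.23-fold, while total RNA gave 1.53-fold. The pseudogene MT1IP rose 2.14-fold in ER-RNA, with 1.54-fold in total RNA. MT4, known from stratified epithelia, rose 1.99-fold in ER-RNA, where it was at 6.99 in hypoxia and 6.0 in control, the control value below the array median, and was at 1.03-fold in total RNA. The pseudogenes MT1JP and MT1DP were at 1.72-fold and 1.58-fold in ER-RNA and at 1.56-fold and 1.53-fold in total RNA, and the probe set shared by MT1L and NUTF2 was at 1.73-fold and 1.65-fold, all without a call. MT1HL1 was at 1.47-fold in ER-RNA, against 0.963-fold in total RNA. In ER-RNA 3 of the 7 were called up and in total RNA 0. The 11 probe sets that name only a member share all 4 values with no other probe set, but metallothionein transcripts are near copies of each other and the probe sequences were not used here, so the part of each signal that comes from a relative was not tested and the values of single isoforms are uncertain to that extent.

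The pattern over the 4 arrays was then compared with that of MT1X. Each probe set's 4 values were centred on their own mean, so the measure takes in the offset between ER-RNA and total RNA as well as the change in hypoxia. Among the members the pattern was closest for MT1F, with a root mean square difference of 0.244 on the log2 scale, followed by MT1E (0.446), and farthest for MT1B (1.51), whose ER-RNA values lie well below its total RNA values. Outside the family, 10837 genes expressed in both fractions were compared with MT1X in the same way over the 4 arrays. The nearest was FAM162A, a mitochondrial protein gene known to be induced by HIF (0.130), which rose in both fractions, 3.73-fold in ER-RNA, 4.01-fold in total RNA. BNIP3, which encodes a mitophagy receptor, came next (0.156) with rises of 3.29-fold and 3.78-fold, then UPK1A, a uroplakin gene (0.198, 5.11-fold and 2.96-fold), ARLN (0.209, 3.18-fold and 2.54-fold) and the pseudogene RPSAP52 (0.225, 3.95-fold and 3.30-fold). All 5 were called up in both fractions. With 4 arrays many genes share such a pattern, and nothing follows from it about shared control.

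The hypoxic change of the metallothioneins was then compared between the fractions. The log2 fold change was larger in ER-RNA than in total RNA for 7 of the 9 members as deposited, beside 48.5% of all genes expressed in both fractions, and for 3 of the 9 after quantile normalization of the 4 arrays. The median difference, ER-RNA minus total RNA, was 0.080 as deposited and -0.047 after quantile normalization. With each array centred on its median it was 0.073, with 7 of the 9 larger in ER-RNA. With a smooth trend on signal removed within each pair it was 0.065, with 6 of the 9. Its direction thus depends on the scaling, and among those tried only quantile normalization turned it. MT1H kept its difference, with 0.40 both as deposited and after quantile normalization. For MT1X it was 0.40 as deposited and -0.12 after quantile normalization, for MT1F 0.23 and -0.047, and for MT1B 0.12 and -0.060. MT1E (0.056 and -0.12) and MT1G (0.052 and -0.17) also turned. MT2A turned the other way, with -0.22 and 0.044, while MT3 (0.080 and 0.097) and MT1M (-0.028 and -0.015) kept their sign.

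The ratio of ER-RNA to total RNA was also measured for each metallothionein. Their proteins are made without a signal sequence, so translation on the ER is not a known requirement for them. Since their scales differ, ER-RNA minus total RNA is given for each probe set less the median of that difference over all probe sets expressed in both fractions (-0.98 in hypoxia and -0.97 in control). A value above 0 means more signal in ER-RNA than the typical probe set. A check of the fraction's label with 7 of the mesenchymal markers whose proteins enter the ER by a signal sequence (FN1, COL6A1, COL6A2, TGFBI, MMP14, CD44 and CDH2), chosen after seeing the data, went against it: 5 of the 7 lay below 0 in hypoxia and 6 in control, with medians of -0.75 and -0.71. VIM, a cytosolic protein, was at 0.93 in hypoxia and 0.95 in control. The study calls the fraction pure, judged by where cytoplasmic and ER marker proteins were found, which the arrays do not measure. A high value is not read here as presence at the ER. MT1G stood highest, at 2.53 in hypoxia and 2.47 in control, and 99.8% and 99.9% of genes lay below it. MT1X was at 1.61 in hypoxia and 1.20 in control, MT1E at 1.46 and 1.4, and MT1F at 1.31 and 1.07. MT2A was at 0.86 in hypoxia and 1.07 in control. Both values of these 5 genes lay above the upper quartile of genes, which was 0.45 in hypoxia and 0.50 in control.

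MT1M (0.58 in hypoxia and 0.60 in control) also lay above that quartile in both conditions, by less. MT3 (0.54 and 0.46) lay above it in hypoxia and below it in control. MT1H was at 0.17 in hypoxia and -0.24 in control, and MT1B was far below the others, at -1.18 and -1.31, with 7.85% and 6.24% of genes lower. In hypoxia 8 of the 9 members were above 0 and in control 7. The values move with signal strength. After the trend of ER-RNA over total RNA on mean signal was taken away, an alternative chosen after seeing the data, MT2A was at -0.52 in hypoxia and -0.14 in control, MT1X at 0.61 and 0.69 and MT1G at 1.75 and 1.84, and 7 and 6 members were above 0.

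**Figure D4:**
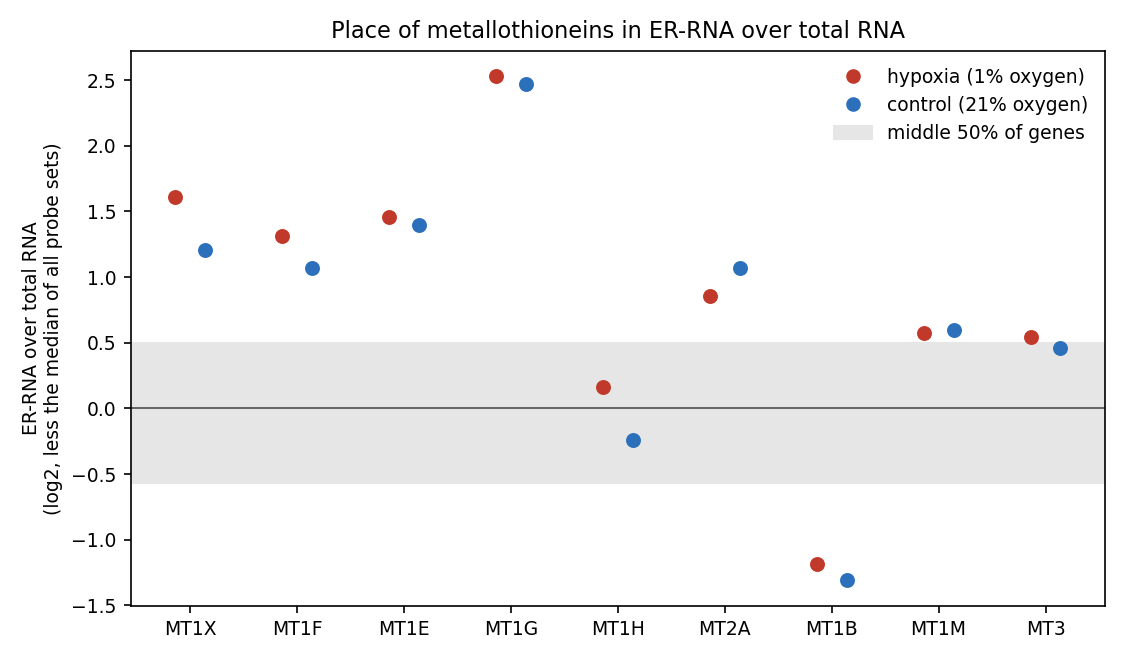
ER-RNA over total RNA of the 9 measured members on the log2 scale, less the median over all probe sets expressed in both fractions, in hypoxia (red) and control (blue). The grey band spans the middle 50% of genes. MT1G lies highest (2.53 in hypoxia and 2.47 in control) and MT1B lowest (-1.18 and -1.31).

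Among genes that supply, sense or carry metal, few were called changed in either fraction. Calls were also few among all expressed genes, with 1.12% up and 8.25% down in ER-RNA and 2.32% up and 7.45% down in total RNA. The lists were not tested against these shares. MTF1, the zinc-sensing activator of metallothionein genes, had log2 signals of 6.94 in hypoxia and 7.53 in control in ER-RNA, and 9.67 in hypoxia and 10.26 in control in total RNA, which is 0.664-fold and 0.668-fold, without a call. SLC30A1, the zinc exporter of the plasma membrane and itself a target of MTF1, had 6.47 in hypoxia and 6.47 in control in ER-RNA and 7.83 and 7.99 in total RNA, or 0.995-fold and 0.899-fold. Of 9 transcription factors known to act on metallothionein promoters, 0 were called in either fraction. Their fold changes ranged between 0.630-fold for NFE2L2, the oxidant-responsive factor NRF2, and 1.22-fold for NR3C1, the glucocorticoid receptor, in ER-RNA, and between 0.656-fold and 1.39-fold for the same genes in total RNA. On the log2 scale the median of their changes was -0.19 (ER-RNA) and -0.12 (total RNA).

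Of 10 zinc exporters of the SLC30 family, 7 were expressed in each fraction and could be called. Among them there were 0 calls up and 1 down for ER-RNA, and 1 up and 0 down for total RNA. SLC30A5, which loads zinc into the secretory pathway, fell to 0.597 of control in ER-RNA, its z-score of -3.00 just past the threshold, and was at 0.714-fold in total RNA. After quantile normalization its z-score was -2.87 and the call was lost. SLC30A3, a zinc transporter of vesicles, rose 1.79-fold in total RNA, with 1.20-fold in ER-RNA. SLC30A6 had the lowest fold change in ER-RNA among the expressed exporters, at 0.593-fold without a call. Of 14 zinc importers of the SLC39 family, 11 were expressed in each fraction and 0 were called in either. The expressed importers ranged between 0.559-fold for SLC39A10 and 1.11-fold for SLC39A4 in ER-RNA, and between 0.612-fold for SLC39A7, which releases zinc from the ER, and 1.29-fold for SLC39A13 in total RNA. Medians were taken over all 10 exporters and 14 importers, those not expressed included. With ER-RNA first, these log2 medians were -0.11 and -0.060 for the exporters and -0.24 and -0.069 for the importers. Ranked by log2 fold change, the middle expressed exporter was SLC30A7 for ER-RNA (-0.43) and SLC30A1 for total RNA (-0.15). The middle expressed importer was SLC39A11 for ER-RNA (-0.34) and SLC39A9 for total RNA (-0.27).

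Of 9 measured copper transporters and chaperones, 8 were expressed in each fraction, and 1 was called down in each and 0 up. SCO1, which delivers copper to cytochrome oxidase, fell to 0.433 of control in ER-RNA and was at 0.658-fold in total RNA. ATOX1, the chaperone that hands copper to the ATPases of the Golgi, was at 0.606-fold in ER-RNA, and its signal in total RNA fell to 0.453 of control. ATP7A, one of these ATPases, was at 1.38-fold in ER-RNA and at 1.58-fold in total RNA, without a call.

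Among 8 measured genes that respond to glucocorticoids, 0 were called in either fraction, although 7 had a value above control in each. Of all expressed genes, 47% had a value above control in ER-RNA and 44.3% in total RNA. TSC22D3 was highest, at 1.84-fold in ER-RNA (z-score 2.70) and 1.42-fold in total RNA (z-score 1.82). After quantile normalization it was called up in ER-RNA, at 1.93-fold with a z-score of 3.32. The lowest were GLUL in ER-RNA (0.938-fold) and KLF9 in total RNA (0.781-fold). Their log2 changes had a median of 0.34 (ER-RNA) and 0.24 (total RNA).

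The glutathione and thioredoxin systems share cysteine and thiol chemistry with the metallothioneins. Of 11 measured genes of these systems, 6 were called down in ER-RNA and 5 in total RNA, and 1 was called up in both. Among all expressed genes 8.25% were called down in ER-RNA and 7.45% in total RNA. Of the genes expressed in both fractions, 0.885% were called up in both. SLC7A11, the cystine importer, fell to 0.360 of control in ER-RNA and 0.341 in total RNA. TXNRD1, a thioredoxin reductase, fell to 0.323 and 0.522, GSS, a glutathione synthetase, to 0.491 and 0.544, GSR, the glutathione reductase, to 0.509 and 0.513, and CTH, which makes cysteine, to 0.574 and 0.623. After quantile normalization the calls of GSS were lost in both fractions and that of GSR in ER-RNA. GCLC gained a call down in ER-RNA there, at 0.608-fold with a z-score of -3.13, beside 0.617-fold and -2.91 as deposited. GCLM, a subunit of the enzyme that begins glutathione synthesis, fell to 0.197 in ER-RNA, where its signal in hypoxia (4.45) lies below the array median, and was at 0.491-fold in total RNA without a call. The glutaredoxin gene GLRX rose in both fractions, 2.03-fold in ER-RNA, 2.29-fold in total RNA. Over this list the log2 change had a median of -0.80 (ER-RNA) and -0.68 (total RNA).

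**Figure D5:**
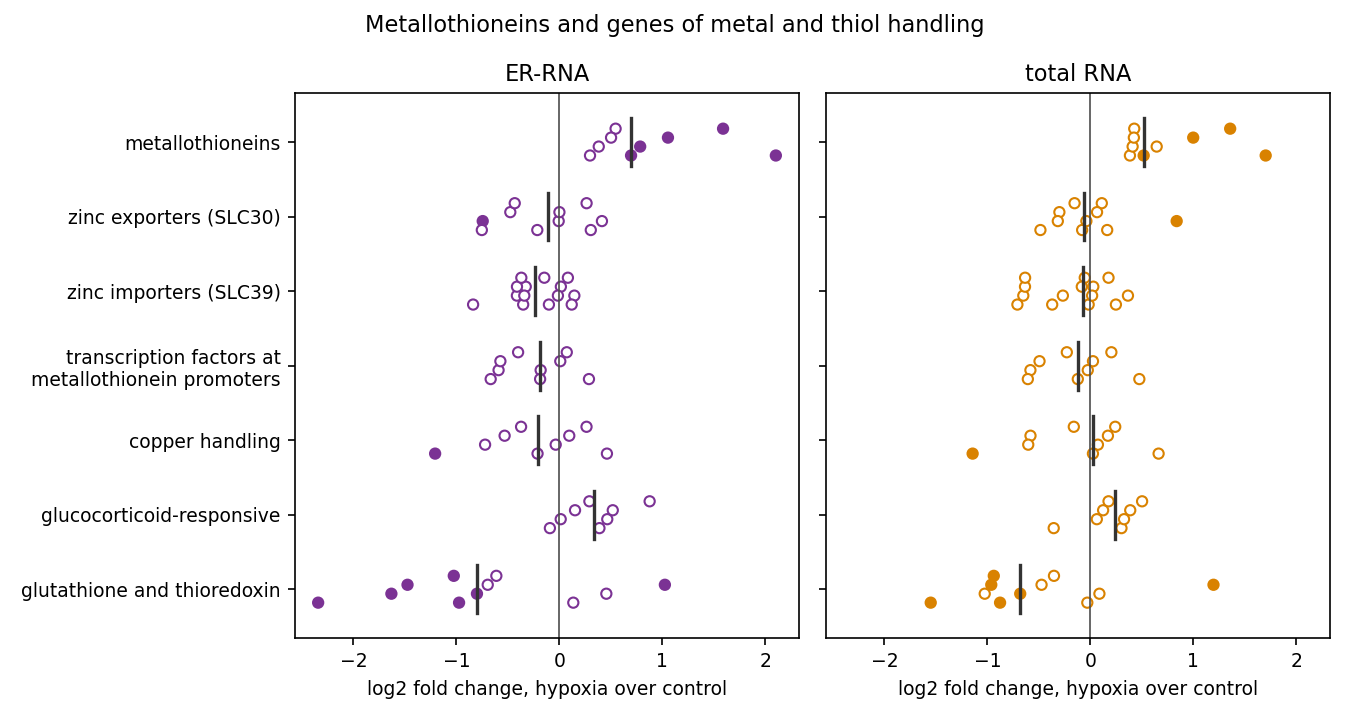
Log2 fold change, hypoxia over control, of the 9 measured metallothioneins and of 6 gene lists of metal and thiol handling in ER-RNA (left) and total RNA (right), with a point for each gene, filled where the change was called, and a bar at the median. The metallothionein medians are 0.70 and 0.52, and those of the glutathione and thioredoxin genes are -0.80 and -0.68. Points are spread vertically only to keep them apart.

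The genes next to the metallothioneins on chromosome 16 were examined in the same way. Among the protein-coding genes nearest to the cluster on either side, 9 were examined, and 0 of these were called up in either fraction. Of all expressed genes, 1.12% were called up in ER-RNA and 2.32% in total RNA. OGFOD1, a prolyl hydroxylase of a ribosomal protein, fell to 0.365 of control in ER-RNA and 0.497 in total RNA, and NUP93, a nucleoporin gene that directly follows MT1X among coding genes, fell to 0.400 and 0.466. HERPUD1, which acts in ER-associated degradation, was at 0.555-fold in ER-RNA and fell to 0.566 in total RNA. BBS2, the closest gene on the other side, was at 0.808-fold and 1.09-fold, and NUDT21, a pre-mRNA cleavage factor, at 0.551-fold and 0.658-fold, without a call. GNAO1, SLC12A3, CETP and NLRC5 ranged between 1.01-fold and 1.17-fold in ER-RNA and between 0.849-fold and 1.27-fold in total RNA.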

How the data were processed

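RNA was measured on 4 Affymetrix Human Gene 1.0 ST arrays. The authors deposited log2 values made with RMA in Partek 6.4, as far as the processing notes of the submitters name tools. The sources used here do not say if all 4 arrays entered the same run. The table holds 33297 probe sets, of which 19460 name 1 gene, 1754 name several and 12083 are unnamed in the platform annotation. By gene identifier 19429 were matched to RefSeq. With R 4.3.3 and limma 3.58.1, changes were called by the thresholds of the study's methods on all probe sets, with the SD from a loess fit of span 0.75 and degree 2, as one reading of the model they cite. With 1 array per group there is no test, and precision is limited by the number of arrays. The members, gene lists and alternatives were chosen with earlier results of these data known. All measured members are named in the text, and of each list the called genes and those with the highest and lowest fold change among expressed genes, with MTF1 and SLC30A1 in any case. Promoter windows came from RefSeq (GRCh38.p14), and of its gene positions only the order of neighbours was used. A median was taken as moved where it changed by at least 0.1.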

Additional observations from a re-analysis of the deposited data

Results flagged for a closer look

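MT1HL1, a metallothionein gene outside the chromosome 16 cluster and not one of the members, was higher in hypoxia in ER-RNA (8.97 in hypoxia and 8.41 in control) and lower in hypoxia in total RNA (8.55 in hypoxia and 8.60 in control). The total RNA difference of -0.054 is close to the median of all expressed genes, -0.058, so the opposite signs rest on a value near no change. The log2 fold change in ER-RNA exceeded that in total RNA by 0.609328, a larger difference than in 98.2% of genes expressed in both fractions. MT4, which was higher in hypoxia in both, had a still larger difference of 0.95. MT1HL1 was called in neither fraction, and the differences were not tested.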

How the results depend on the processing

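No paired analysis was possible because each group holds 1 array. Of 248 log2 fold changes of single members under the alternatives, 0 changed sign, 17 lost a call and 3 gained one. Most alternatives alter only the filter, the SD, the threshold or the members, and leave the log2 fold change as it is. Only the scalings and, for MT2A, the choice of probe set could change a sign. In ER-RNA, where 5 were called up, 2 were called with each array centred on its median, 1 with an SD from the scaled MAD, 3 with a fold change over 2, and 8 of 16 when the other metallothionein probe sets were counted too, a setting chosen after seeing the data. In total RNA, where 4 members were called up, 1 was called when the SD was the scaled MAD and 2 with a fold change over 2. The median log2 fold change in total RNA was 0.64 over the 7 members above the 50% quantile on all 4 arrays. The median place in ER-RNA over total RNA was 0.86 in hypoxia and 1.07 in control. It was 0.66 and 0.74 after quantile normalization and 0.61 and 0.69 less the trend on signal, added after seeing the data. In hypoxia it was also 1.03 with the mean of all probe sets of a gene, 1.18 with the probe set of lowest mean and 1.31 over the 7 members. The median difference between the fractions, 0.080, was -0.047 after quantile normalization. It was 0.073 with each array centred on its median and 0.065 with a smooth trend on signal removed within each pair. For the 6 gene lists, 35 of 48 counts stayed within 1.5 times and 13 did not. Causes of these shifts were not tested. Centring the arrays moved the median of all expressed genes to -0.12 in ER-RNA and -0.14 in total RNA. The rule calls few changes with the scaled MAD of the log2 differences, a larger measure than the SD of the 2 values of a pair. With 1 array per group, neither can be checked against replicates.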
